A study of Pleuronichthys verticalis with 38 samples.

Results

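A set of 100 liver transcripts of the hornyhead turbot (Pleuronichthys verticalis), out of 14757 on the array, is described here. All 4 groups of fish that had been given persistent organic pollutants had a higher mean level of each of these transcripts than both control groups, and the controls differed little from each other. Members were chosen on those group means. Of 7628 probes that were well above background on at least 30 of the 38 arrays, 4344 had oil and seawater control means within 0.25 of each other on the log2 scale. In 410 of these, all 4 exposed means lay above both control means. The 100 with the largest margin, which is the lowest exposed mean minus the higher control mean, form the set. The level of exposed against control fish is therefore what picked the members, and it is given below as a description. No test of it is read as support.

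Polybrominated diphenyl ethers (PBDEs) are flame retardants and polychlorinated biphenyls (PCBs) are former industrial fluids. Both are fat-soluble, resist breakdown and collect in marine sediment, where a bottom-living flatfish meets them through its food. The liver takes up such compounds from the blood and holds the enzymes that oxidise and conjugate them, and in fish it also makes yolk precursors, plasma proteins and lipoproteins. Peanut oil, the carrier of an injected dose, is itself a load of fat. Oil-injected and uninjected fish differ by both the oil and the injection, which cannot be told apart here.

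Each of the 38 fish was measured once, on a 1-colour custom array. Low and high PBDE fish (7 and 6) received 0.5 and 5 µg of a PBDE mixture per g of body weight, and low and high PCB fish (5 and 7) received 1 and 10 µg of a PCB mixture per g. Every dose was given as 1 injection into the body cavity in peanut oil at 2 ml per kg; oil controls (6) received the oil alone, seawater controls (7) had no injection, and livers were taken after 96 h. The fish were 10 females, 26 males and 2 immature animals, unevenly spread, with 4 females among the 5 low PCB fish and none among the high PBDE fish. The PBDE mixture held 3 congeners, namely BDE47, BDE99 and BDE100, and the PCB mixture held 13, namely PCB49, PCB52, PCB66, PCB87, PCB99, PCB101, PCB105, PCB118, PCB138, PCB149, PCB153, PCB170 and PCB180. The doses of the 2 mixtures were not matched. Labels disagree for seawater control 7, whose description names a vehicle control, and it was kept under its title.

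Levels are log2 processed signal minus the array's own 75th percentile, so that 0 is the brightness of the 75th percentile and 1 unit is a doubling. That percentile was between 43.6 and 193.6 intensity units in exposed fish (median 123.7) and between 88.8 and 162.7 in controls (median 118.8). The dimmest array, high PCB 32, was also alone on its slide. RNA integrity numbers averaged 8.9 over all fish, from 7.1 to 9.2, and were not given per fish. The files pair each probe with a contig number of the fish's assembled transcriptome and with no gene name, so members are called by their probe and no role can be given to any of them. Neither the tissue nor the presence of other cell types could be checked against marker genes for the same reason. In whole liver, more cells of a type and more RNA per cell cannot be told apart.

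The 25 exposed fish averaged 0.56 above the 13 controls on the log2 scale in the median member, a 1.47-fold difference, and between 0.30 and 1.60 above them over the set. The margin, which sets the lowest exposed group against the higher control group, had a median of 0.31, or 1.24-fold, and ranged from 0.20 to 1.36. It was above 1 in 2 members, above 0.5 in 13 and below 0.3 in 45. In 8 members the margin was larger than the SD among fish of a group, which had a median of 0.59 over the members and 0.48 over the 7628 probes. The last member inside the set, HT_SCCWRP_13402, had a margin of 0.199 and the first probe outside it, HT_SCCWRP_596, one of 0.194. That difference is far smaller than the spread between fish. The same rule turned downward found 675 probes with all 4 exposed means below both controls, with a largest margin of 1.22 and 0.23 at the 100th place, and 11 of them passed 0.5.

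Oil and seawater controls were close, as the rule required. The oil mean was the higher in 47 of the 100 members, and in 27 the control means were within 0.05. The lowest exposed mean belonged to high PBDE in 31 members, high PCB in 29, low PBDE in 20 and low PCB in 20. Low PCB fish had the highest mean in 38 members, low PBDE in 23, high PCB in 22 and high PBDE in 17.

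**Figure D1:**
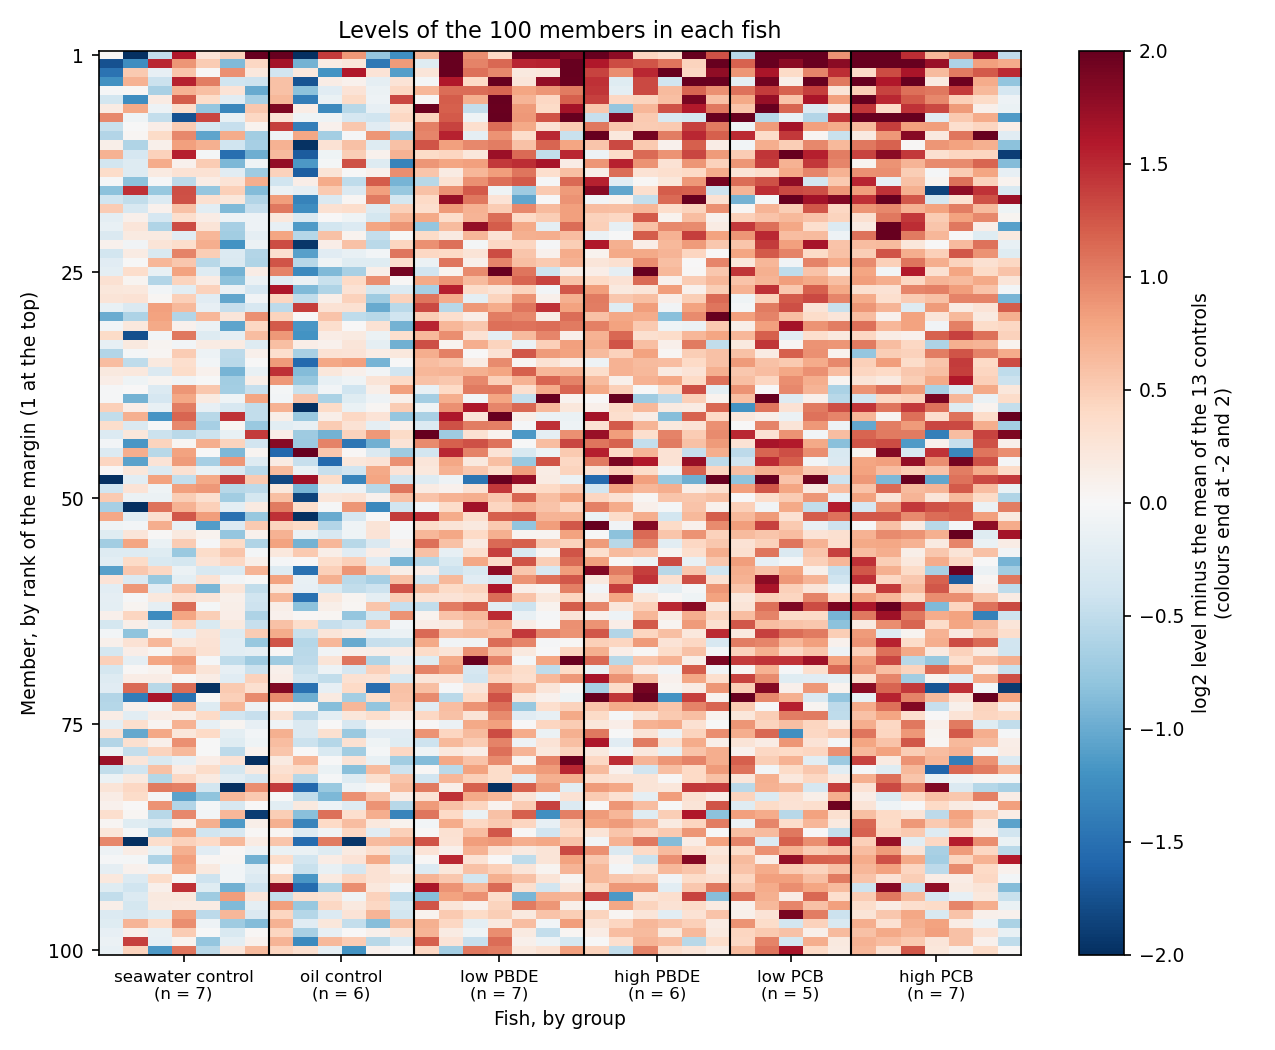
Log2 level of each of the 100 members (rows, by margin) in each of the 38 fish (columns, by group), minus the mean of the 13 controls; colours end at -2 and 2. Exposed columns are mostly red, with single members low in many exposed fish, and 1 column in each control group is red as well.

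HT_SCCWRP_23809 had the largest margin, 1.36, and also the largest spread of the set. Its level in seawater controls ran from -4.74 to 1.26 with a median of -0.88, and in oil controls from -4.21 to 1.08 with a median of -1.07. Low PBDE fish lay between -0.73 and 2.62 with a median of 0.75, and high PBDE fish between -0.79 and 2.49 with a median of 0.40. The 5 low PCB fish were at -1.68, -0.22, 0.90, 1.24 and 1.58, and high PCB fish lay between -1.61 and 2.38 with a median of 0.35. Each exposed group overlapped the controls, and 6 of the 25 exposed fish were above all 13 controls. Mean levels were 0.47 ± 1.18 (SD, n = 25) in exposed and -1.12 ± 1.85 (SD, n = 13) in control fish, a 3.02-fold difference. Signal well above background was found in each of the 25 exposed fish and in 11 of the 13 controls, so the fold rests in part on controls near background. Exposed fish were higher on average on 5 of 7 slides that held both kinds of fish and on 2 of 3 scan days. On the log2 scale, exposed minus control was 2.03 in females and 1.07 in males. Without seawater control 24, the lowest, the margin was 0.74.

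HT_SCCWRP_70897, the other member with a margin above 1 (1.21), was a dim probe. Seawater controls ran from -5.82 to -2.57 (median -3.67) and oil controls from -5.52 to -2.42 (median -3.89). Low PBDE fish ran from -4.33 to -1.72 (median -2.57), high PBDE fish from -3.64 to -2.01 (median -2.80) and high PCB fish from -4.69 to -1.59 (median -2.36). The 5 low PCB fish, at -2.90, -2.28, -2.27, -2.10 and -1.57, were the most alike, and 4 of them were above every control. Signal stood well above background in 24 of the 25 exposed fish and in 7 of the 13 controls. With 6 controls at background level no fold is given. The margin was -0.12 under normexp, another background correction, which was given the local background of each spot. That setting also started from median spot intensities and added an offset of 50, and which of these moved the margin was not tested. All 3 female controls, at -5.82, -5.52 and -4.96, were among the controls not well above background. Exposed minus control was 3.09 on the log2 scale in females, which rests on those controls, and 0.77 in males.

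HT_SCCWRP_5572, the brightest member, had more exposed fish above all controls than any other. Seawater controls ran from 4.02 to 5.72 (median 5.04) and oil controls from 4.20 to 5.60 (median 5.10). Low PBDE fish lay close together, between 5.69 and 6.18 (median 6.07), while high PBDE fish ran from 4.82 to 6.44 (median 6.06) and high PCB fish from 4.68 to 6.42 (median 6.08). The low PCB fish were at 5.29, 6.10, 6.20, 6.41 and 6.41. Of 25 exposed fish, 18 were above all 13 controls: 6 of 7 low PBDE, 4 of 6 high PBDE, 4 of 5 low PCB and 4 of 7 high PCB. The remaining 7 fell within the controls' range, with high PCB 41 at the bottom. Exposed fish averaged 5.94 ± 0.47 (SD, n = 25) and controls 5.02 ± 0.55 (SD, n = 13), a 1.89-fold difference, with control means 0.03 apart and exposed means within 0.25. On the log2 scale, exposed minus control was 0.91 in females and 0.89 in males. The difference had the same sign on 6 of 7 slides that held both kinds of fish and on each of the 3 scan days. The probe was picked again in all 38 repeats of the rule that each left out 1 fish, with margins from 0.63 to 0.86.

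Smaller steps were seen in other members. HT_SCCWRP_35598 was between -2.16 and -0.89 (median -1.28) in seawater controls and between -1.77 and -0.40 (median -1.38) in oil controls. Its low PBDE fish ran from -0.77 to 0.02 (median -0.47), high PBDE fish from -1.24 to -0.20 (median -0.88) and high PCB fish from -1.09 to -0.50 (median -0.65), and the low PCB fish were at -0.76, -0.74, -0.65, -0.57 and -0.49. The exposed groups overlapped the upper controls. Of 25 exposed fish, 22 were above the midpoint between the lowest exposed and the higher control mean, against 3 of 13 controls. A midpoint lies between means that the rule had set apart, so counts about it are a description and no support. Exposed fish were 1.61-fold higher on average. HT_SCCWRP_19388, with the smallest spread of the set (SD 0.33), had group means of 1.79 in seawater and 2.01 in oil controls and of 2.35 and 2.34 in low and high PBDE fish and 2.50 and 2.55 in low and high PCB fish. All 5 low PCB and all 7 high PCB fish were above its midpoint, and 5 of the 25 exposed fish were above the highest control, oil control 49 at 2.65.

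HT_SCCWRP_17027 and HT_SCCWRP_1407 were bright probes with small margins. HT_SCCWRP_17027 averaged 3.67 ± 0.27 (SD, n = 13) in controls and 4.04 ± 0.34 (SD, n = 25) in exposed fish, a 1.30-fold difference, and 8 exposed fish were above all controls. HT_SCCWRP_1407 averaged 5.14 ± 0.53 (SD, n = 13) and 5.67 ± 0.56 (SD, n = 25), a 1.44-fold difference. Its lowest fish of all was an exposed one, low PCB 33 at 3.92, the single male of that group, and in male fish alone the margin was -1.29.

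In HT_SCCWRP_43372 the place in the set rested on a few fish. Controls ran from -2.97 to -1.24, and most exposed fish lay in the same range. Low PBDE 5 stood at 4.53 and high PBDE 18 at 1.96, followed by low PCB 29 at 0.20 and high PCB 3 at -0.13. The medians of the exposed groups, -1.96 in low PBDE, -1.99 in high PBDE, -1.92 in low PCB and -1.61 in high PCB, were close to the control medians of -2.05 and -2.11. The margin was 0.37 with all fish, -0.19 without high PBDE 18 and -0.08 without low PCB 29.

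**Figure D2:**
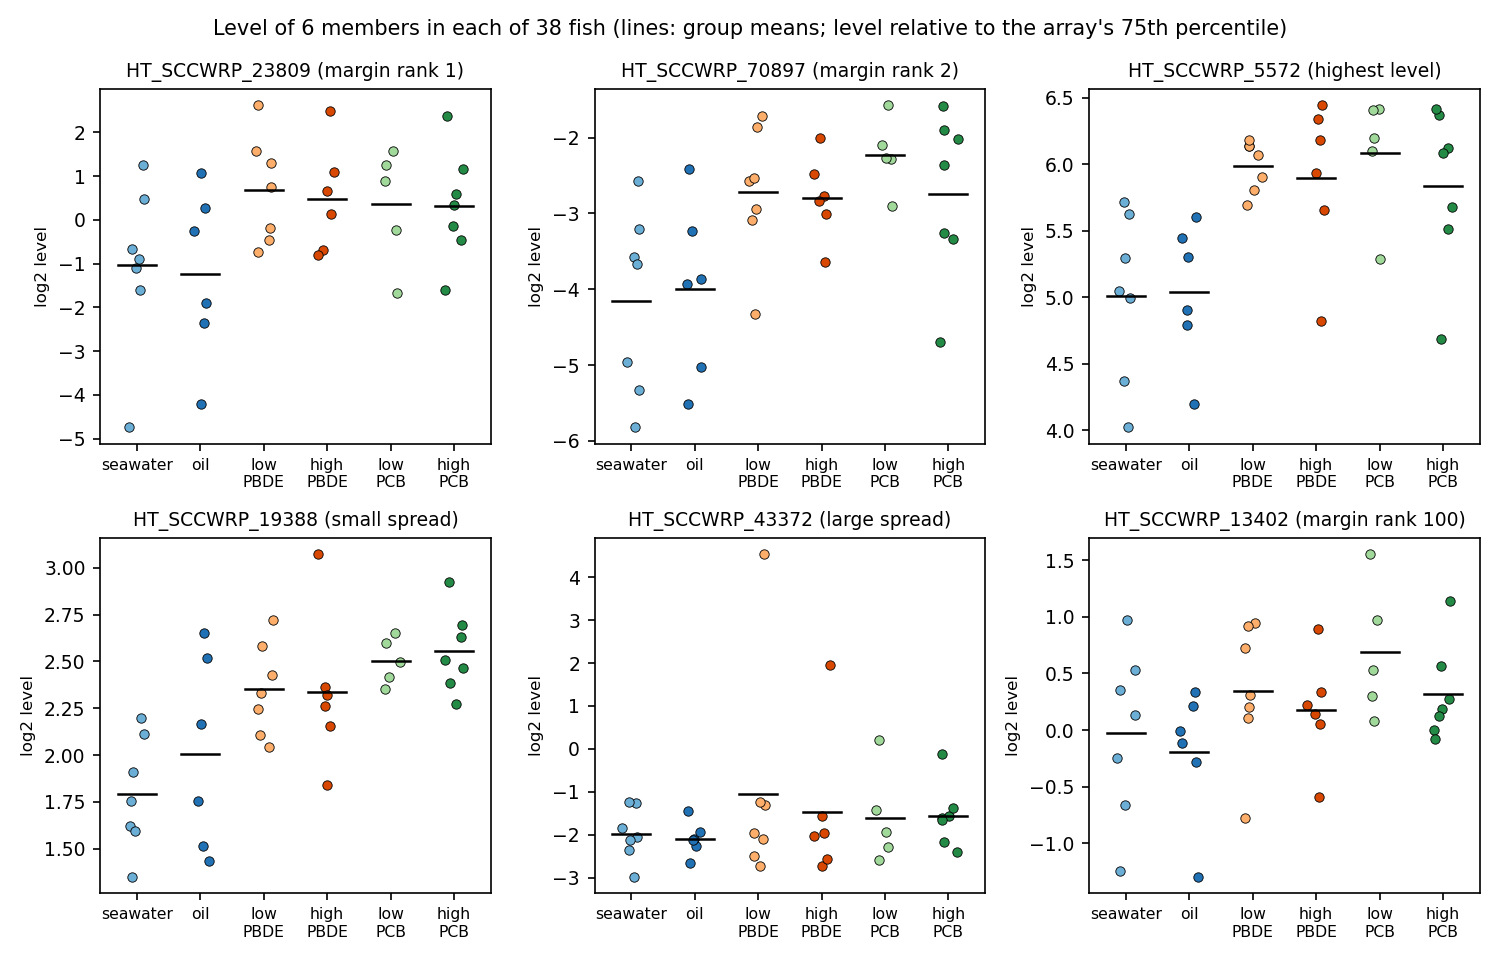
Log2 level of 6 members in each fish by group, with a point per fish and a line at each group mean; the vertical scales differ. HT_SCCWRP_5572 has 18 of 25 exposed fish above all controls, HT_SCCWRP_23809 has 6, and in HT_SCCWRP_43372 low PBDE 5 at 4.53 and high PBDE 18 at 1.96 stand alone.

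Exposed and control fish overlapped in every member. Over all probes only exposed fish above the controls were counted, not exposed fish below them. All 25 exposed fish were above all 13 controls in none of the 100 members and in 0% of the 7628 probes. No member had all fish of any 1 exposed group above all controls. Over the 7628 probes that share was 0% for low PBDE, high PBDE and high PCB fish and 0.0262% for low PCB fish. The counts are near the share over all probes, so they show nothing particular to the members. Per member, the number of exposed fish above all controls had a median of 6 and ran from 0 to 18. A median of 18 of 25 exposed fish were above a member's midpoint and a median of 9 of 13 controls were below it. These per-member numbers are not given over the 7628 probes, and the rule favours high values of each. Nothing is read from them.

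In the mean over the set, seawater control 46 and oil control 15 were as high as some exposed fish, and high PCB 41 was as low as some controls. The mean over the 100 members, minus the mean of all controls, was -0.01 ± 0.22 (SD, n = 7) in seawater and 0.01 ± 0.35 (SD, n = 6) in oil controls. In low PBDE fish it was 0.59 ± 0.16 (SD, n = 7), in high PBDE 0.57 ± 0.14 (SD, n = 6), in low PCB 0.64 ± 0.18 (SD, n = 5) and in high PCB 0.58 ± 0.28 (SD, n = 7). Exposed fish ran from 0.07 (high PCB 41) to 0.88 (high PCB 21). Controls ran from -0.58 (oil control 20, 1 of the 2 immature fish) to 0.50 (oil control 15). Seawater control 46 stood at 0.45, where the other 6 seawater controls lay between -0.20 and 0.03. Seawater control 46 had 69 and oil control 15 had 65 of the 100 members above the midpoint, and high PCB 41 had 34; the medians were 75 in exposed and 33 in control fish.

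**Figure D3:**
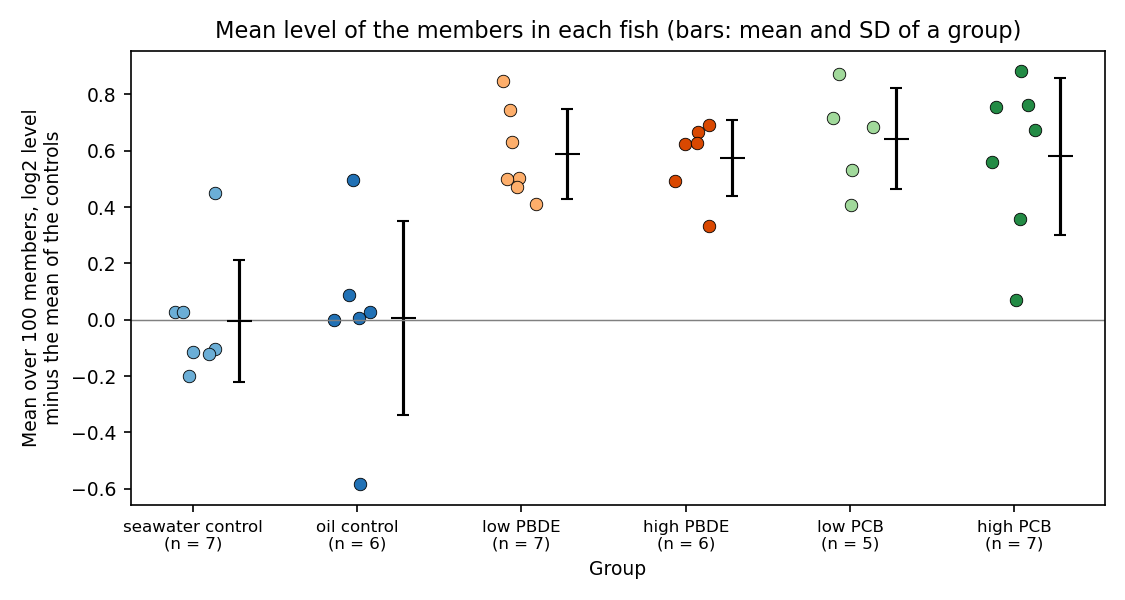
Mean over the 100 members in each fish (points), as log2 level minus the mean of the controls, by group, with group mean and SD beside the points. The 25 exposed fish lie between 0.07 and 0.88 and the 13 controls between -0.58 and 0.50, with seawater control 46 and oil control 15 among the exposed fish.

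The step was seen on most slides but not on all. Arrays lay on 8 slides scanned on 3 days, and 7 slides held both exposed and control fish. Exposed fish were on average higher for 83, 95, 98, 71, 43, 95 and 94 of the 100 members on slides 1 to 7. The median differences were 0.57, 0.73, 0.86, 0.23, -0.08, 0.63 and 0.54 on the log2 scale. Over the 7628 probes, between 45% and 51.4% were higher in exposed fish on a slide, and those medians lay between -0.06 and 0.01. Slide 5 held high PCB 41 and, as its single control, seawater control 46. Exposed fish were higher for 97, 100 and 93 members on scan days 1, 2 and 3, against 47.5%, 46.7% and 47.4% of the 7628 probes. They were higher for 96 members in females and 100 in males, against 52.6% and 44.5%. Among single members, 18 were higher in exposed fish on all 7 slides, 52 on 6, 22 on 5, 7 on 4 and 1 on 3, where 1.36% of the 7628 probes were higher on all 7 and 7.42% on 6. These slides, scan days and sexes hold the fish that picked the members, so the counts describe evenness and are no separate support.

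**Figure D4:**
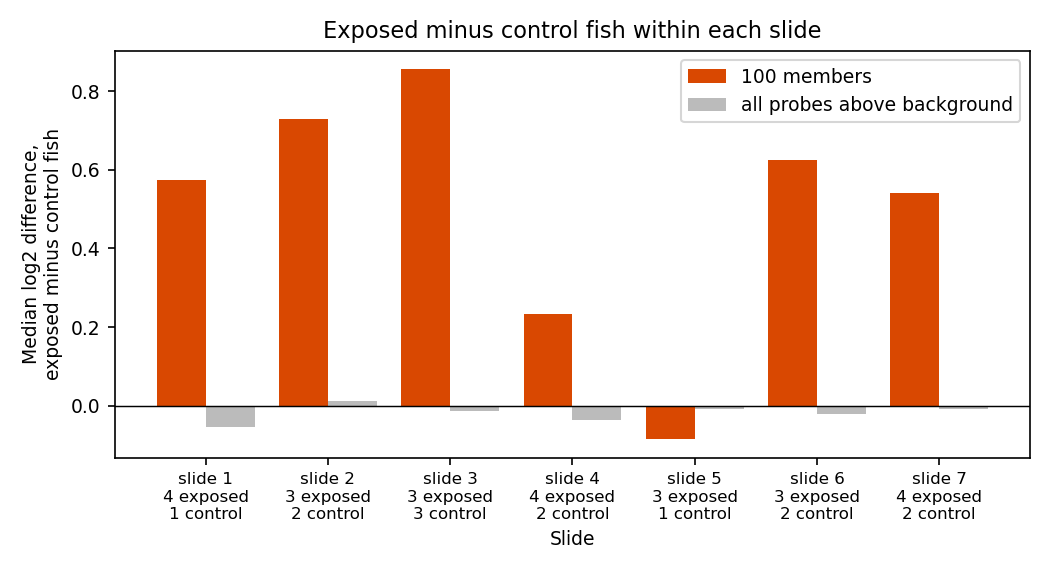
Median log2 difference between exposed and control fish within each of the 7 slides that held both, for the 100 members and for all 7628 probes above background on at least 30 arrays. The members' median is 0.86 on slide 3 and -0.08 on slide 5, where seawater control 46 is the single control.

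Sex, slide and scan day were no part of the rule and were tested with limma over 10492 probes. The rule's group means were not adjusted for them, and females were unevenly spread over the groups. These tests are therefore not fully apart from the picking. Shares of all probes in the limma tests are over the 10492, which include dimmer probes. Members could come only from the 7628 above background on at least 30 arrays, so members and shares are not compared like for like. With means adjusted for sex 76 members were picked again, and with means adjusted for slide 78. Between females and males no member passed an adjusted p of 0.05, and neither did any other probe (0% called). At an unadjusted p under 0.05 there were 7 members, 2 of them higher in females, against 5.67% of all probes. Females were higher in 31 of 100 members, against 48.9% of all probes, with a median difference of -0.08 against -0.01 over all probes. HT_SCCWRP_1465 had the smallest p among members lower in females, with a difference of -0.72 (SE 0.25, limma adjusted p = 0.693). HT_SCCWRP_20826 had the smallest p among those higher, with 0.49 (SE 0.21, limma adjusted p = 0.809). Both were dim, with exposed means of -2.20 and -2.37, and the exposed fish were 1.52-fold and 1.30-fold higher than controls. With means adjusted for sex the margin of HT_SCCWRP_20826 changed from 0.23 to -0.13.

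Between slides 2 members passed, against 9.9% of all probes: HT_SCCWRP_19760 (limma adjusted p = 0.0316) and HT_SCCWRP_70897 (limma adjusted p = 0.0335). At an unadjusted p under 0.05 there were 11 members, against 27.6% of all probes. In both called members, the array alone on slide 8, high PCB 32, was the furthest from its group, 2.09 below the group mean in HT_SCCWRP_19760 and 1.96 below in HT_SCCWRP_70897. It was also the dimmest array, and its levels of -4.74 and -4.69 were the lowest of the high PCB fish. Both probes were dim, and in each 6 of the 7 high PCB fish were well above background. Without high PCB 32 no member passed, and the limma adjusted p-values were 0.222 and 0.0906. Without high PCB 17 the count was also 0, with limma adjusted p-values of 0.0612 and 0.0517, and without low PBDE 12 both were lost as well (0.0517 and 0.0652), while HT_SCCWRP_36336 was called. HT_SCCWRP_70897 was also lost without high PBDE 4, low PCB 33 or oil control 49, and HT_SCCWRP_19760 without low PCB 29, with limma adjusted p-values between 0.0522 and 0.0666.

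Between scan days 4 members passed, against 7.8% of all probes, and 11 had an unadjusted p under 0.05, against 22.7%. Those that passed were HT_SCCWRP_36336 (limma adjusted p = 0.00867), HT_SCCWRP_12132 (limma adjusted p = 0.0250), HT_SCCWRP_7502 (limma adjusted p = 0.0314) and HT_SCCWRP_1714 (limma adjusted p = 0.0410), of which the last 3 were named after their values were seen. Fish of day 3 averaged 0.81 below their group means in HT_SCCWRP_36336, 0.80 below in HT_SCCWRP_12132 and 0.56 below in HT_SCCWRP_1714, and 0.63 above them in HT_SCCWRP_7502. The count was 2 without high PBDE 4, high PCB 3, low PCB 2, low PCB 33 or oil control 8, and HT_SCCWRP_36336 was called in each of these. The call was lost without some 1 fish for HT_SCCWRP_7502 (9 of 38 fish), HT_SCCWRP_1714 (6) and HT_SCCWRP_12132 (3). HT_SCCWRP_36336 kept an adjusted p between 0.00414 and 0.031 under every alternative and every left-out fish. Its exposed fish were 1.81-fold higher, with group means of -0.38 and -0.52 in seawater and oil controls, -0.10 and 0.43 in low and high PBDE fish, and 0.84 and 0.60 in low and high PCB fish.

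No member was called between the doses of a mixture or between the mixtures. Nothing is read from this, since the rule favours members whose exposed means are alike. The differences below come from the limma fit of group and sex, so they are adjusted for sex. Between high and low PBDE no member was called (0% of all probes, 4% at an unadjusted p under 0.05, 0 members). The median difference was 0.00, with 50 members higher at the high dose, against 43.4% of all probes. Between high and low PCB no member was called (0% of all probes, 3.04% at an unadjusted p under 0.05, 2 members). The median was -0.14, with 32 members higher at the high dose, against 43.2% of all probes. Low PCB against low PBDE and high PCB against high PBDE, which were unequal doses, likewise had no member called by limma (0% and 0% of all probes). At an unadjusted p under 0.05 there was 1 member in each, against 4.24% and 3.96% of all probes. The medians were 0.11 with 63 members higher and -0.04 with 40 higher, against 53% and 50.8% of all probes. Without that adjustment, HT_SCCWRP_5572 was lower in high than in low PBDE fish, with group means of 5.90 and 5.99. It was also lower in high than in low PCB fish, with 5.84 and 6.08. Adjusted for sex, its high minus low difference was 0.08 (SE 0.27) for PBDE, of the opposite sign, and -0.29 (SE 0.30) for PCB. The same adjusted differences were -0.14 (SE 0.53) and -0.93 (SE 0.59) for HT_SCCWRP_70897, all but 1 of whose exposed fish were well above background.

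The rule used the comparisons with each control, so calls among the members were favoured in advance and are no support. No member was called against oil controls in any of the 4 exposures, where 0%, 0%, 0% and 0.00953% of all probes were called by limma for low and high PBDE and low and high PCB fish in turn. At an unadjusted p under 0.05 the shares of all probes were 4.4%, 4.81%, 7.51% and 7.41%. Against seawater controls 0.0477% of all probes were called in low PBDE fish, with 1 member among them. That member, HT_SCCWRP_35598, differed by 0.97 (SE 0.20), which is the kind of difference the rule selected. No member was called in high PBDE, low PCB or high PCB fish (0%, 0.0858% and 0.0762% of all probes). At an unadjusted p under 0.05 the shares were 6.8%, 8.18%, 8.32% and 9.05% of all probes in the same order of groups. The 4 exposures share both control groups, so their differences are not separate measurements.

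Within groups, some members varied together from fish to fish. With each fish's value taken minus its group mean, Pearson's r across the 38 fish had a median of 0.13 over the 4950 pairs of members and of 0.0005 over all pairs of the 7628 probes. It was at least 0.7 in 31 pairs of members (0.626%) and in 0.108% of all pairs. Values of a fish share an array and its scaling, and probes that vary together are also more likely to meet the rule together, so no test is given. Joined at 0.7, 25 members fell into 5 sets and 75 stood alone. The largest set had 11 members, with HT_SCCWRP_11285 at the highest rank in it. Its mean was lowest in oil control 20, at -1.66 from the group mean, and highest in oil control 15, at 0.88. A set of 6 was lowest in oil control 20 as well, at -1.02, and highest in seawater control 46, at 0.85. How many pairs would reach 0.7 without oil control 20 was not tested, so these sets may rest in part on that fish. The set of 6 holds the closest pair of all, HT_SCCWRP_10198 and HT_SCCWRP_10197 (r = 0.91), which carry consecutive contig numbers. HT_SCCWRP_10198 was at 3.14 ± 0.61 (SD, n = 13) in controls and 3.75 ± 0.41 (SD, n = 25) in exposed fish, and HT_SCCWRP_10197 at 0.12 ± 0.62 and 0.67 ± 0.43, which are 1.53-fold and 1.47-fold differences. Exposed minus control was 0.92 in females and 0.37 in males for HT_SCCWRP_10198, and 1.06 and 0.27 for HT_SCCWRP_10197. HT_SCCWRP_12132, HT_SCCWRP_1714 and HT_SCCWRP_36336, 3 of the 4 members that differed between scan days, formed a further set with r from 0.81 to 0.87, lowest in high PCB 3 and highest in high PBDE 4.

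Which probes make up the set depended on single control fish. When the rule was run again without 1 exposed fish, 89 to 97 of the 100 members were picked, and without 1 control fish 57 to 85. The lowest counts followed leaving out oil control 20 (57), oil control 15 (69) and seawater control 46 (70). Without oil control 20, 95 members kept a margin above 0 and 67 met the whole rule. In 84 members the margin stayed above 0 whichever fish was left out, and 10 members were picked every time, HT_SCCWRP_5572 among them. HT_SCCWRP_23809 was picked in 32 and HT_SCCWRP_70897 in 33 of the 38 runs, and HT_SCCWRP_13402, the last member, in 21. The lowest margins of HT_SCCWRP_23809 and HT_SCCWRP_70897 were 0.74 and 0.90, so the rule's limit on the control means left them out. Leaving out seawater control 7, whose labels disagree, kept 85 members, and counting it as an oil control kept 67.

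**Figure D5:**
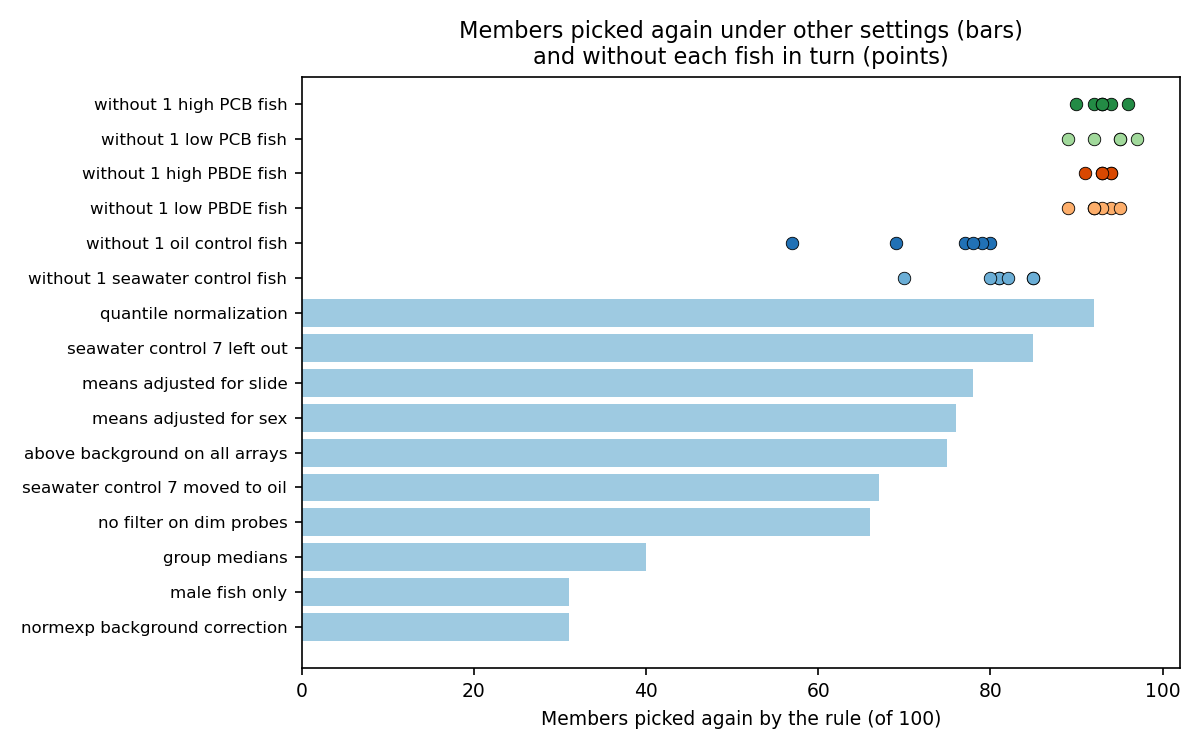
Number of the 100 members that the rule picked again, with 1 fish left out (points, coloured by the group of the fish) and under 10 other settings (bars). Points for exposed fish lie between 89 and 97, points for control fish between 57 and 85, and the shortest bars, at 31, are normexp background correction and male fish only.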

How the data were processed

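Liver RNA of each fish was labelled with Cy3 and hybridised to 1 array of a custom 8-array slide. Per the file headers, the authors extracted spot intensity with Feature Extraction 11.5.1.1. The deposited files give a processed signal from which background was subtracted, median intensities of spot and surround, and flags, and the deposited table of the series holds the same processed signals, rounded (largest difference 0.497%) and not scaled between arrays. How that table was rounded and why is not given in the sources used here.

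From these, the log2 signal of 15207 non-control spots had the log2 of the array's 75th percentile subtracted and was averaged per probe (14757). A probe on 10 spots counted as above background where at least as many of its spots were as were not; no member was one. No non-control spot was saturated (0). Groups came from the sample titles. The rule is as described above. Group and sex were fitted over 10492 probes, well above background on at least 5 arrays and without an outlier flag, in limma 3.58.1 (R 4.3.3, intensity trend), with slide or scan day added for those tests, two-sided and with Benjamini-Hochberg adjustment over all probes at 0.05. The fit and the rule were tested on simulated data with planted changes. The simulated noise was simpler than that of these arrays, so this checks the calculation and not how reliable the members are. Depth has no counterpart on arrays, where the number of fish limits precision; p-values assume that each fish is an independent animal.

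Members and lists were chosen with earlier results of these data known. Fixed gene lists could not be applied for want of gene names. Without names, the probes named are the 2 members each with the largest margin, the highest level and the smallest and largest SD within groups, the last inside and the first outside the set, and the member with the smallest p per direction for sex, slide and scan day. HT_SCCWRP_12132, HT_SCCWRP_7502, HT_SCCWRP_1714, HT_SCCWRP_10198, HT_SCCWRP_10197, HT_SCCWRP_35598 and HT_SCCWRP_11285 were named after their values were seen. The settings varied were the scaling (quantile), the background (normexp, offset 50), other filters on dim probes, sex, slide and scan day terms, male fish only, group medians, seawater control 7 left out or moved, and each fish left out.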

Additional observations from a re-analysis of the deposited data

Results flagged for a closer look

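In 9 of 120 groups of 4 to 10 fish that were checked, 1 fish lay further from the rest than Dixon's 95% limit, which chance exceeds in about 1 in 20 groups. The same fish recur in these groups, and HT_SCCWRP_43372 was named for its large spread. No excess is therefore read from the count. The mean over the members was 0.45 in seawater control 46, where the others ran from -0.20 to 0.03, and HT_SCCWRP_36336 was 0.68 in the same fish, with the others between -0.86 and -0.33. HT_SCCWRP_5572 was 5.29 in low PCB 52, with the others of that group from 6.10 to 6.41. HT_SCCWRP_17027 was 3.13 in oil control 20, the fish with the lowest mean over the members, with the others from 3.60 to 3.81.

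HT_SCCWRP_43372 was 4.53 in low PBDE 5, with the other low PBDE fish from -2.71 to -1.24, and 1.96 in high PBDE 18, with the other high PBDE fish from -2.73 to -1.55. HT_SCCWRP_1465 was -3.36 in low PBDE 13, a female, with the others from -2.05 to -1.36. HT_SCCWRP_7502 was 1.40 in high PBDE 23, with the others from -1.03 to -0.20. HT_SCCWRP_10197 was 1.53 in low PBDE 38, with the others from 0.21 to 0.63.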

How the results depend on the processing

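No paired analysis was possible because no fish number is shared between groups. Of the 100 members, 31 were picked again with normexp background correction, 31 with male fish only, 40 with group medians and 66 with no filter on dim probes, and 57 to 97 without 1 fish. The other 6 settings kept 67 to 92. With probes above background on all arrays the count, 75, is simply the number of members that pass that filter. Leaving out seawater control 7, which kept 85, is also 1 of the runs without 1 fish. The normexp setting started from median spot intensities and added an offset of 50, so it changed more than the background. The margin was still above 0 in 73 members with normexp, 63 in male fish only and 84 with group medians, and 46, 42 and 61 still met the whole rule. The median margin over the 100 was 0.31, between 0.11 (male fish only, which leaves 1 low PCB fish) and 0.31 under the other settings and between 0.25 and 0.35 without 1 fish. The 2 members that differed between slides became 0 with normexp and 0 with probes above background on all arrays, which leaves both untested in the latter case, and 0 to 3 without 1 fish. The 4 that differed between scan days became 1 with normexp and 2 to 6 without 1 fish. No member was called for sex, dose or mixture under any alternative run.

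Margins of named members changed sign as follows, and the cause was not tested. With normexp they were -0.0842 for HT_SCCWRP_12132, -0.14 for HT_SCCWRP_1465, -0.0531 for HT_SCCWRP_19760, -0.18 for HT_SCCWRP_20826, -0.0614 for HT_SCCWRP_43372 and -0.12 for HT_SCCWRP_70897. In male fish only they were -1.29 for HT_SCCWRP_1407, -0.11 for HT_SCCWRP_19760, -0.35 for HT_SCCWRP_43372 and -0.84 for HT_SCCWRP_7502. With means adjusted for sex it was -0.13 for HT_SCCWRP_20826, and with group medians -0.0022 for HT_SCCWRP_36336. Without 1 fish the margin ran from -0.0049 to 0.37 for HT_SCCWRP_13402 and from -0.19 to 0.48 for HT_SCCWRP_43372.

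Dim probes limit the set: 25 members were not well above background on every array. How far their differences depend on background removal alone was not tested, since the normexp setting also added an offset. No gene names or RNA quality per fish were used here.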
